A study of Mus musculus with 3 samples.

Results

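MYC occupancy was compared between 2 lines of Pan02 cells, a mouse pancreatic ductal adenocarcinoma line, through the peak lists deposited for them. The members are all MYC peaks on chromosomes 1 to 19 and X: 11925 from cells carrying the empty vector and 22241 from cells that stably express POH1-Flag, so 34166 of the 37758 peaks in the 3 lists of the series. POH1 is the deubiquitinase of the proteasome lid, encoded by Psmd14, and the series title presents it as a regulator of MYC. Every library came from CUT&Tag, in which a transposase tethered by an antibody inserts sequencing adapters next to the target protein. The 3 libraries were MYC in vector cells, MYC in POH1-Flag cells, and Flag in POH1-Flag cells, which is used here only to mark sites where the tag antibody also gave a peak. The genotype labels read Vector and stably expressing POH1-Flag, and no other allele or agent is given. Whether the POH1-Flag line is 1 clone or a pool is not given in the sources used here.

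There was 1 library per line. No difference between the lines could therefore be set against a spread between replicates, and every interval below is a 95% interval for counting error alone. Intervals would be too narrow if PCR copies of a fragment had been counted as separate reads. Signal in bulk cells does not separate more cells with MYC at a site from more MYC per cell, so these cannot be told apart here.

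MYC is a basic helix-loop-helix leucine zipper protein that binds DNA as a dimer with MAX, with highest affinity for the E-box, and in tumour cells it also sits at most active promoters. The MXD proteins and MNT compete with it for MAX and recruit repressors. MYC is short-lived: ubiquitin ligases such as FBXW7 and SKP2 mark it for the proteasome, and deubiquitinases such as USP28 and USP36 oppose them. In pancreatic ductal adenocarcinoma MYC drives genes of ribosome production, nucleotide synthesis and the cell cycle.

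The promoters of 6 genes show where a summit lay in each list, whether a peak was present and whether the sequence held an E-box. They are examples and do not show how common each case is. The E-box was in 12.6% of promoters of genes marked (defined below) in both lists, and in 8.54% for POH1-Flag cells only. The sequences are RefSeq promoters on GRCm38.p6, printed on the gene's strand from 250 bases before the start to 30 after it, with bases counted from 1 at the left. Capitals mark the E-box CACGTG, which reads the same on both strands. Max (minus strand, chr12:76962219-76962498) holds it at base 248, and the MYC summit lay at base 237 in vector cells and at base 94 in POH1-Flag cells. Mxd4 (minus strand, chr5:34187681-34187960), whose product pairs with MAX as a repressor, holds it at base 32, with summits at bases 198 and 21. Cited2 (plus strand, chr10:17722978-17723257), a coregulator of CBP and p300, holds it at base 98 and had the largest widening of a peak among the strong shared sites described below. Cntd1 (plus strand, chr11:101278953-101279232) holds it at base 64, in a promoter shared with Coa3 on the other strand, and had the largest summit shift among those sites. Cox7a2l (minus strand, chr17:83514304-83514583) and Blvrb (plus strand, chr7:27447728-27448007) hold none and had a peak in POH1-Flag cells only, with summits at bases 84 and 149.
Max: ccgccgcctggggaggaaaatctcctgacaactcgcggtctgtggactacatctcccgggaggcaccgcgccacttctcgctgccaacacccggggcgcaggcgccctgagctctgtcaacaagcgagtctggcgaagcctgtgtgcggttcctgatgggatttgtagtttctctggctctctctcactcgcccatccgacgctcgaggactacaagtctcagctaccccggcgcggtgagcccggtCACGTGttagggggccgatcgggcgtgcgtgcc
Mxd4: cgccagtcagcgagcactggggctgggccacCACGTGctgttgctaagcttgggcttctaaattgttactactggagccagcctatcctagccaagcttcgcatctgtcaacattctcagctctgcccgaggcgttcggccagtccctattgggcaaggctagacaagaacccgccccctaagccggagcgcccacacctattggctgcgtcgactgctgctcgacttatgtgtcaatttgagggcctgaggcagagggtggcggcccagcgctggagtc
Cited2: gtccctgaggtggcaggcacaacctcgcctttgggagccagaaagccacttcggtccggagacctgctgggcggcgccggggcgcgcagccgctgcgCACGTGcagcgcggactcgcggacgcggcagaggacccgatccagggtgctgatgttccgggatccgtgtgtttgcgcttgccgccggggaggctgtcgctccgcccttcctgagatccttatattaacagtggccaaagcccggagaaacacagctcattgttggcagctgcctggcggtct
Cntd1: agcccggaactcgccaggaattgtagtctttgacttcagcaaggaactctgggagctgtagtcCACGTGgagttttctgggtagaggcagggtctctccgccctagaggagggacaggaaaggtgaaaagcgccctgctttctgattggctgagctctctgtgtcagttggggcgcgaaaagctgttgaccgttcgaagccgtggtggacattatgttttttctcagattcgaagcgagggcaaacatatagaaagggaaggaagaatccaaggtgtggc
Cox7a2l: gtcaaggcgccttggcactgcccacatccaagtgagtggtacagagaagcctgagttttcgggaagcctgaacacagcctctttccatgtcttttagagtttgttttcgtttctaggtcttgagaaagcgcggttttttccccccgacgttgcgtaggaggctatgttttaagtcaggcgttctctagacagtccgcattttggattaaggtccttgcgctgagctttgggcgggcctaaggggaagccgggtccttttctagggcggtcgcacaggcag
Blvrb: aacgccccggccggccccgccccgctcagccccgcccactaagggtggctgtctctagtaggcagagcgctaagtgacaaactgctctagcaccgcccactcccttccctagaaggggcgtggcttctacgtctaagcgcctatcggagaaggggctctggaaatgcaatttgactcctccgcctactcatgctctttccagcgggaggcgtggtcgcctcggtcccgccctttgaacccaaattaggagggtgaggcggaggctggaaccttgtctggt

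POH1-Flag cells had 1.87 times as many MYC peaks as vector cells (1.82 to 1.91), at a depth that differed little. The genome-wide background was 3.86 reads per kb in the vector library and 4.09 in the POH1-Flag library, and the median summit held 14 and 15 reads. The excess was not even over peak strength. Among peaks with 10 or 11 reads at the summit the ratio was 1.30 (1.23 to 1.38), with 2084 peaks in vector and 2716 in POH1-Flag cells. Among peaks of 20 to 29 reads it was 2.38 (2.26 to 2.51), and among peaks of 30 to 44 reads it reached 3.98 (3.63 to 4.36), with 590 and 2347 peaks. Peaks of fewer than 10 reads also had a high ratio, at 2.32 (2.19 to 2.45). The POH1-Flag list thus held more peaks at both ends of the range of strength and a smaller excess in between. The weak end was not cut alike, since the fewest reads at a summit were 6 in the vector and 5 in the POH1-Flag list. The ratio under 10 reads is therefore not one at an equal limit.

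Every chromosome had more peaks in POH1-Flag cells. The ratio ran from 1.65 on chromosome 19 and 1.66 on chromosome 1 to 2.25 on X (209 and 471 peaks, 1.91 to 2.67). X also had the lowest overlap, with 61.7% of its vector peaks and 26.8% of its POH1-Flag peaks overlapping the other list, and the narrowest peaks, at medians of 303 and 330 bp. Chromosome 19 had the highest overlap (91.6% and 54.9%). Flag peaks were unevenly spread over the chromosomes, with 448 on chromosome 1, 369 on chromosome 2, 276 on chromosome 3 and 143 on X of 2805 in all, and vector peaks on chromosomes 1, 2 and 3 overlapped the other MYC list at 73.9%, 77.9% and 75.7%. MYC peaks that met a Flag peak were nearly equal in number, with 1154 in vector and 1268 in POH1-Flag cells (ratio 1.10, 1.01 to 1.19). Those that met none numbered 10771 and 20973 (1.95, 1.90 to 1.99). The part of the Flag signal in these numbers was not tested.

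The POH1-Flag peaks covered 11.1 Mb against 5.41 Mb in vector cells. Of the base pairs covered in vector cells 82.2% were covered again, and these made up 40.2% of the base pairs covered in POH1-Flag cells. Overlapping vector peaks lay inside POH1-Flag peaks more often than the reverse. Of the 10104 vector peaks that overlapped a POH1-Flag peak, 5328 (52.7%, 51.8 to 53.7%) lay wholly inside it. Of the 10010 overlapping POH1-Flag peaks, 713 (7.12%, 6.64 to 7.64%) lay wholly inside a vector peak. In 179 places a single POH1-Flag peak spanned 2 or more vector peaks, 363 vector peaks in all, and the spanning peaks were wide (median 1149 bp) with a median of 27 reads. The opposite, a vector peak over 2 POH1-Flag peaks, occurred 90 times.

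Peak width differed less than peak number. The median was 398 bp (393 to 403) in vector cells and 434 bp (430 to 439) in POH1-Flag cells. The tail was heavier: 319 vector peaks (2.68%, 2.40 to 2.98%) and 1171 POH1-Flag peaks (5.27%, 4.98 to 5.57%) were 1 kb or wider. Peaks that overlapped the other list had medians of 433 and 628 bp, and peaks that did not had medians of 259 and 319 bp. The shortest width in each list is set by the peak caller, at 219 bp in vector and 202 bp in POH1-Flag cells, and 9.56% and 9.19% of the peaks had it. Among vector peaks that overlapped no POH1-Flag peak, 29.3% were at that shortest width. Against the 11925 strongest POH1-Flag peaks by q, an equal number, the medians were 398 and 599 bp. Only the POH1-Flag list lost its weaker peaks by this cut. Weaker peaks were narrower, as given below, so the cut itself raises that median.

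Width rose with the number of reads at the summit up to 44 reads, and from 10 to 44 reads the lists were close. Peaks of 12 to 14 reads had a median of 366 bp in both lists. At 15 to 19 reads the medians were 466 bp (459 to 475) and 477.5 bp (470 to 486), and at 20 to 29 reads 586 bp (573 to 602) and 615 bp (607 to 623). Peaks of fewer than 10 reads were wider in vector cells, at 280 bp (272 to 286) against 242.5 bp (239 to 247). Medians differed most in the class of strongest peaks. Those with 45 reads or more had a median of 575 bp (527 to 652) over 195 vector peaks and 860.5 bp (834 to 886) over 718 POH1-Flag peaks. This class does not hold the same sites in the 2 lists, and its vector median was below the 741.5 bp at 30 to 44 reads. At the 191 shared sites (defined below) with 45 or more vector reads, the medians were 580 and 588 bp.

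**Figure D1:**
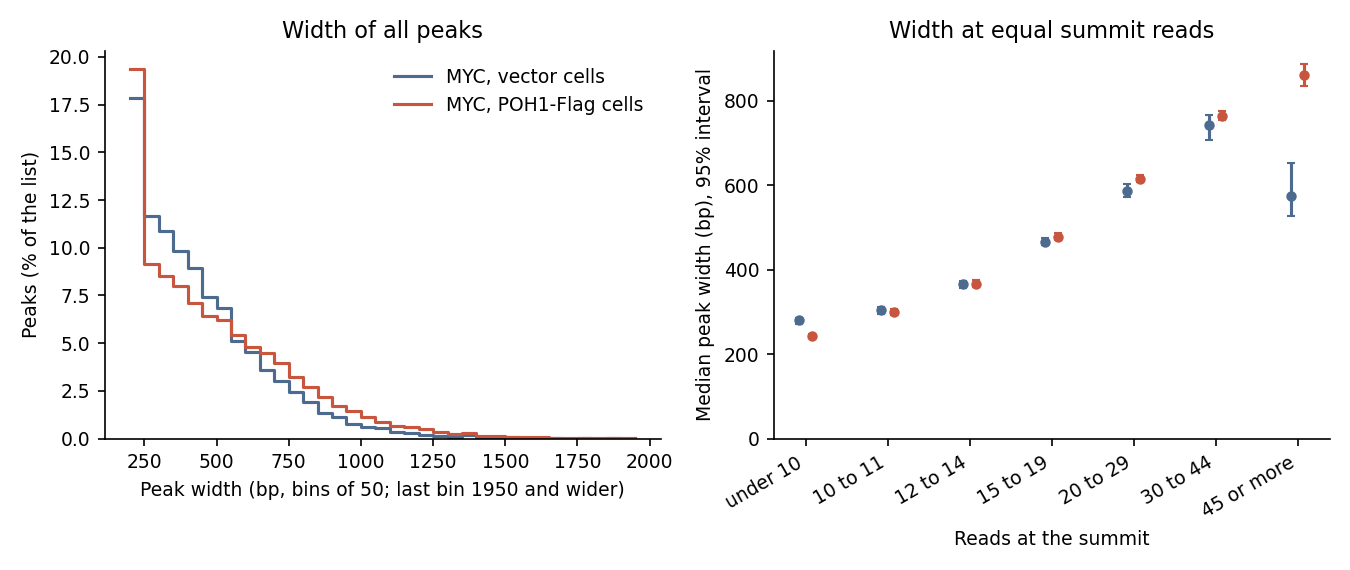
Left, share of each MYC list (%) by peak width in bins of 50 bp, vector cells in blue and POH1-Flag cells in red; right, median peak width in bp with its 95% interval for counting error, by reads at the summit. The medians nearly coincide from 10 to 44 reads and separate at 45 reads or more, where the vector median is 575 bp and the POH1-Flag median 860.5 bp. The peaks of a class are not the same sites in the 2 lists.

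The same sites could be followed across the lists. A shared site was a pair of peaks, 1 from each list, that were each other's largest overlap, and there were 9927. Their median width was 435 bp in vector and 631 bp in POH1-Flag cells. The median log2 ratio of widths, POH1-Flag over vector, was 0.41 (0.40 to 0.42), which is 1.33-fold, and 7952 sites (80.1%, 79.3 to 80.9%) were wider in POH1-Flag cells. Reads at the summit, each scaled by the background of its library, had a median log2 ratio of 0.64 (0.62 to 0.65). Sites that marked a gene (defined below) were wider by more, at a median log2 of 0.46 (0.44 to 0.47) over 4946 sites, than the 4981 others, at 0.34 (0.32 to 0.37).

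Widening was not found at sites where Flag also had a peak. At these 817 sites the median log2 width ratio was −0.04 (−0.06 to −0.02), 42.8% were wider in POH1-Flag cells, and both libraries had a median of 15 reads. The 9110 sites without a Flag peak had a ratio of 0.44 (0.43 to 0.46). Leaving out MYC peaks that met a Flag peak changed few marked genes. Genes marked in both lists were then 5873 instead of 5891, and in POH1-Flag cells only 2663 instead of 2664. The comparisons by Flag and by marking are thus not separate, and which of them the width difference went with was not tested. The ratio was also lower at sites with more vector reads. Sites with 10 or 11 vector reads had a median log2 width ratio of 0.60 (0.57 to 0.63), those with 20 to 29 reads 0.32 (0.30 to 0.34), and the 191 sites with 45 or more 0.00 (−0.03 to 0.04), where medians were 580 and 588 bp. These classes use the vector reads, which are one side of the comparison, and the median log2 read ratio was likewise lower from class to class, from 0.81 under 10 reads to 0.18 at 45 or more, so part of this order can come from how the classes were made. At the 852 sites whose scaled reads were equal within 1 the ratio was 0.17 (0.11 to 0.23). A wider peak in POH1-Flag cells therefore went together with more reads, and a smaller difference was present where reads were equal.

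The added width lay on both sides. Toward lower coordinates the POH1-Flag peak reached a median of 66 bp (63 to 70) beyond the vector peak, and toward higher coordinates 65 bp (61 to 68). At 4141 sites that marked the start of a gene of known strand, the median extension was 77 bp (73 to 81) on the upstream side and 87 bp (82 to 92) on the downstream side.

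Single genes showed both directions. Named genes were those with the most extreme values among 1392 genes with 1 shared site and an authors' −log10 q of at least 10 in both lists, whose median log2 width ratio was 0.32. At Cited2 the peak was 301 bp wide in vector cells, with 24 reads at the summit, and 1152 bp wide in POH1-Flag cells, with 28 reads (chr10:17722427-17723578). Its summit moved by 134 bp, from base −7 to base 127 of the sequence printed above, and so passed from one side of the E-box to the other. Pja2, a ubiquitin ligase gene, had peaks of 278 and 877 bp with 18 and 29 reads. Tnrc6b, which acts in microRNA silencing, had 324 and 999 bp. The site shared by Smim14 and the ubiquitin-conjugating enzyme gene Ube2k had 415 and 1206 bp, and Ewsr1, an RNA-binding protein gene, had 465 and 1323 bp. The ratio of scaled reads at these 5 sites ran from 1.19 at Cited2 to 1.65 at Pja2, and each interval included 1.

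Narrower peaks in POH1-Flag cells were found at Zmym2, a zinc finger gene (1368 and 772 bp, 28 and 51 reads), at Mt2, a metallothionein gene (1151 and 717 bp, 37 and 40 reads), and at Psat1, of serine synthesis (1072 and 735 bp, 41 and 33 reads). Ubald2, Nhej1 and Snx32 were the others by this rule. At Zmym2 the reads were higher in POH1-Flag cells (ratio 1.86, 1.15 to 3.07) although the peak was narrower. Mt2 and Psat1 had ratios of 1.11 (0.690 to 1.78) and 0.824 (0.505 to 1.33), and a difference in reads was not detectable there at this depth.

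Summits at shared sites mostly lay within the peak of the other list, which pairing by overlap favours. Peaks that moved too far to overlap are not among these sites. The median absolute shift over the 9927 sites was 68 bp (66 to 70), with quartiles of 26 and 150 bp. At 4044 sites (40.7%, 39.8 to 41.7%) the summits lay within 50 bp of each other, and at 140 (1.41%, 1.20 to 1.66%) they were more than 500 bp apart. The POH1-Flag summit lay inside the vector peak at 89.6% of sites and the vector summit inside the POH1-Flag peak at 95.5%. Shifts had no common direction along the chromosome, with a signed median of 2 bp (0 to 4).

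Stronger sites shifted less. The median absolute shift was 99 bp (93 to 109) at sites with fewer than 10 vector reads, 66 bp (62 to 71) at 15 to 19 reads and 24 bp (19 to 31) at 45 reads or more. Sites with a Flag peak had a median of 38 bp (32 to 44) and sites without one 71 bp (69 to 73), at an equal median of 15 vector reads. Sites that marked a gene and sites that did not both had 68 bp (65 to 71). The spread that resequencing of 1 library would give at these read numbers was not measured, so a shift of this size cannot be told apart from it.

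**Figure D2:**
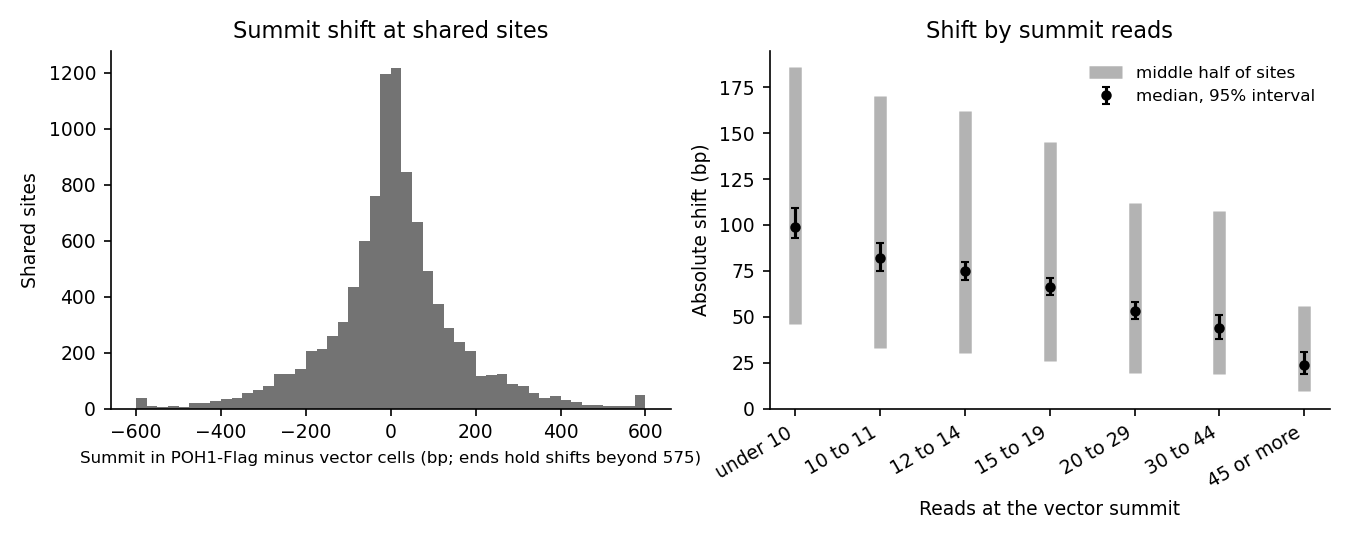
Left, number of shared sites by summit shift (POH1-Flag minus vector, bp; bins of 25 bp, with the end bins holding all larger shifts); right, absolute shift in bp by reads at the vector summit, with the median and its 95% interval in black and the interquartile range in grey. Shifts centre on 2 bp, and the median absolute shift is 99 bp for sites under 10 reads and 24 bp for sites of 45 or more.

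At the 4141 sites that marked a gene start, summits of POH1-Flag cells lay slightly nearer to the start. The median distance was 145 bp (141 to 150) in vector and 135 bp (131 to 139) in POH1-Flag cells, and 2183 sites were nearer against 1920 that were farther. Along the direction of transcription the median shift was −3 bp (−5 to 0).

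The largest shifts by the same rule for naming were within peaks more than 1 kb wide, and 2 of these 4 sites marked a pair of neighbouring genes. At the promoter shared by Cntd1, a cyclin-domain gene, and Coa3, an assembly factor of cytochrome c oxidase, the summit moved by 879 bp, from −965 to −86 bp relative to the start of Cntd1. Negative values are upstream. The peak was 1173 bp wide with 28 reads in vector cells and 1498 bp wide with 32 reads in POH1-Flag cells, and the second summit lay at base 165 of the sequence printed above. At Pprc1, a coactivator of the PGC-1 family, the summit moved from −158 to 638 bp within peaks of 1351 and 1393 bp. Bhlhe40, a transcriptional repressor gene, had a shift of −789 bp along the chromosome, and the site between Hdlbp and Septin2 had one of 700 bp. Over all sites the greatest absolute shift was 2274 bp, on chromosome 9 at chr9:124422745-124425168.

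In both lists MYC summits gathered just inside gene starts. Counts here are of pairs of a summit and a gene start, so a summit near several starts counts for each. The intervals do not allow for such repeats. Within 1 kb there were 5092 pairs in vector and 7326 in POH1-Flag cells. Their median positions were 44 bp (33 to 52) and 46 bp (39 to 51) downstream. Upstream summits made up 43.7% (42.3 to 45.04%) and 42.9% (41.8 to 44.1%). The profile was double, with 795 and 1190 summits in the bin centred at −150 bp, fewer at −50 bp (670 and 1071) and the most at 50 bp (939 and 1440). POH1-Flag peaks that overlapped no vector peak lay farther downstream, at a median of 74 bp (66 to 80) over 2386 pairs. Of these pairs, 37.0% (35.1 to 39.0%) had the summit upstream. Far ends of genes were marked rarely. Of 17273 genes of known strand, 28.6% in vector and 40.3% in POH1-Flag cells had a summit within 1 kb of the start, and 1.99% and 3.29% within 1 kb of the far end.

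**Figure D3:**
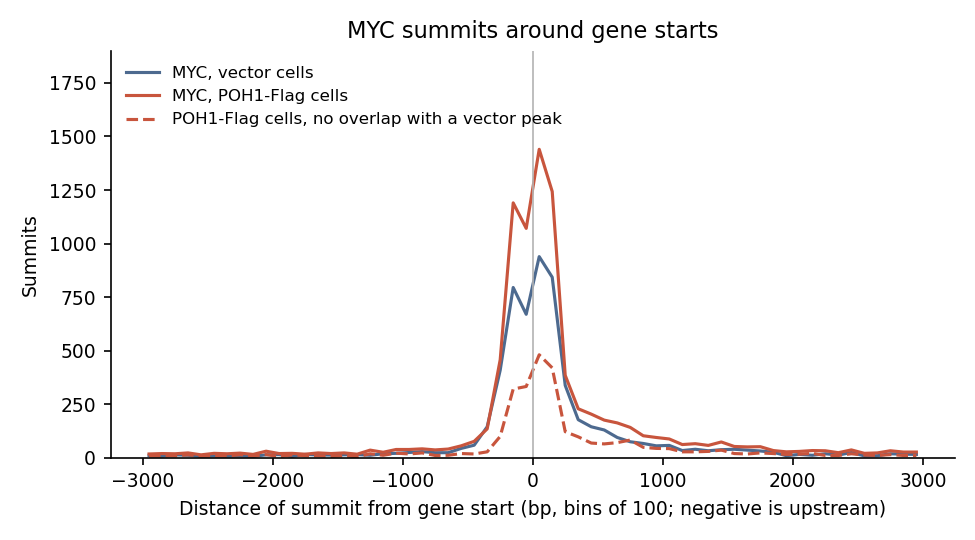
Number of MYC summits by distance from the gene start in bp, in bins of 100 bp, for vector cells (blue), POH1-Flag cells (red) and the POH1-Flag peaks without an overlapping vector peak (dashed). Both lists have a peak on each side of the start, and the downstream one is higher, with 939 and 1440 summits in the bin at 50 bp. A summit near several gene starts is counted for each.

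A gene was called marked when a summit lay within 1 kb of its start, or of either end for the 4354 genes without a strand in the promoter table. Vector cells had 6006 marked genes, 27.8% of 21627 protein-coding genes, and POH1-Flag cells had 8555, 39.6%. The lists shared 5891 genes (27.2%), which is 98.1% of the vector set and 68.9% of the POH1-Flag set. Marked in POH1-Flag cells only were 2664 genes (12.3%), and marked in vector cells only were 115 (0.532%). For 26 of the 2664 the marking peak did meet a vector peak, but one with its summit outside the 1 kb, and 358 had a vector summit elsewhere in the gene. For 35 of the 115 the vector peak overlapped a POH1-Flag peak. At equal list length 1343 genes were marked in POH1-Flag cells only and 606 in vector cells only.

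Genes marked in POH1-Flag cells only and named for the highest −log10 q included 4 whose site was also present in vector cells. Garnl3, the cyclin E2 gene Ccne2, the mitochondrial carrier gene Slc25a41 and Mfsd11 had summits 698 to 978 bp from the start, or from the nearer gene end for Ccne2 and Slc25a41, whose strand is not in the promoter table. Their peaks overlapped vector peaks with a summit beyond the limit. The others were Cox7a2l, which helps respiratory supercomplexes form, and Blvrb, a biliverdin reductase. The Cox7a2l peak was 582 bp wide with 29 reads at −167 bp (chr17:83514101-83514682), and the Blvrb peak 616 bp wide with 35 reads at −102 bp (chr7:27447589-27448204). Neither gene had a vector summit in it or within 1 kb of it.

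All 6 genes named for the strongest marking in vector cells only had a marking peak that overlapped a POH1-Flag peak. They were Iba57, of iron-sulfur cluster assembly, the spindle pole gene Wdr62, Armc5, Lmntd2, the kinase gene Rps6ka4 and Pdcl. At Iba57 the vector summit of 27 reads lay 912 bp from the start, and at Armc5 one of 26 reads lay 822 bp from a gene end. The 1 kb limit thus decided these 6 calls.

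The strongest marking in both lists was at Tbl2, Hdgf, Saysd1, Adss, Rnf13 and Eif5a, chosen by −log10 q in POH1-Flag cells, which favours high ratios. At Tbl2 the widths were 907 and 891 bp, at Saysd1 823 and 801 bp, and at Eif5a, of translation elongation, 782 and 868 bp. Adss, an enzyme of AMP synthesis, was narrower in POH1-Flag cells, at 888 and 653 bp with 32 and 63 reads. Among these 6 genes summit shifts were between 9 bp at Hdgf and 124 bp at Eif5a.

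Genes also held more MYC summits each. A summit was found in the gene or within 1 kb of it in 7947 genes in vector cells (36.7%, 36.1 to 37.4%) and in 11234 in POH1-Flag cells (51.9%, 51.3 to 52.6%). Those genes had a mean of 1.22 summits (SD 0.583 over genes) in vector and 1.48 (SD 1.03) in POH1-Flag cells. At least 2 were present in 1332 genes (16.8%, 16.0 to 17.6%) and 3201 genes (28.5%, 27.7 to 29.3%), and 5 or more in 35 and 256. More summits in POH1-Flag cells were counted in 5447 genes, fewer in 498, and an equal number in 5522. Of the 5447 genes, 1927 already had a summit in vector cells. With the POH1-Flag list cut to its 11925 strongest peaks by q, as many as in vector cells, 15.4% of its genes had 2 or more, which is below the vector share.

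Long genes differed most in number. Of the 2426 genes of 100 kb or more, 52.7% had a summit in vector and 73.0% in POH1-Flag cells, with means of 1.57 and 2.39 per gene. Of the 4850 genes under 5 kb, 17.8% and 24.2% had one, with means of 1.09 and 1.13.

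In vector cells the highest number per gene was at Tex14, of germ cell bridges, with 8 summits against 9 in POH1-Flag cells, and all 8 vector peaks overlapped POH1-Flag peaks. Dagla, of endocannabinoid synthesis, had 7 and 5, the receptor gene Lrp1b 7 and 8, and the transcription activator gene Camta1 6 and 9. Sipa1l3, Ralgps1, Syn3 and Maml3 also had 6 in vector cells. In POH1-Flag cells the highest numbers were 14 at the synapsin gene Syn3 (6 in vector cells), 14 at the RhoGAP gene Stard13 (5), 13 at Macrod2 (5), 13 at the DNA repair gene Rad51b (3), 12 at the Notch coactivator gene Maml3 (6) and 11 at Ank3, an ankyrin gene (1).

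The largest gains beside these were from 1 to 9 summits at Babam2, of the BRCA1-A complex, and at the translation factor gene Ctif. The median over all POH1-Flag peaks of the gene was 9 reads at Babam2, 8 at Macrod2, 12 at Rad51b, 13 at Ank3, 15 at Ctif and 16 at Stard13, against 15 over the whole list. Among the largest losses Rgs7, a regulator of G protein signalling, went from 5 summits of 9 to 17 reads, 2 of them at Flag peaks, to 0. Nckap5 went from 6 to 2, and Lrrc4c, Pak7 and Rbms3 each from 3 to 0. Fam214b, from 4 to 2, was the sixth by this rule. Its vector summits had 12 to 20 reads, and its marking peak was wider in POH1-Flag cells (555 and 846 bp).

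Spacing was closer in the longer list. The median distance from a summit to the nearest other summit of its list was 34690 bp (33359 to 35886) in vector and 19044 bp (18615 to 19515) in POH1-Flag cells. Another summit lay within 10 kb for 22.4% (21.6 to 23.1%) and 34.3% (33.7 to 35.0%), and within 1 kb for 6.09% (5.67 to 6.53%) and 8.32% (7.97 to 8.69%). For POH1-Flag peaks without an overlapping vector peak, the median distance to the nearest vector summit was 46260 bp (44478 to 47980). A vector summit lay within 1 kb of 4.25% (3.91 to 4.62%) of them and within 10 kb of 18.6% (17.9 to 19.3%). At equal list length the median spacing in POH1-Flag cells was 30507 bp.

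**Figure D4:**
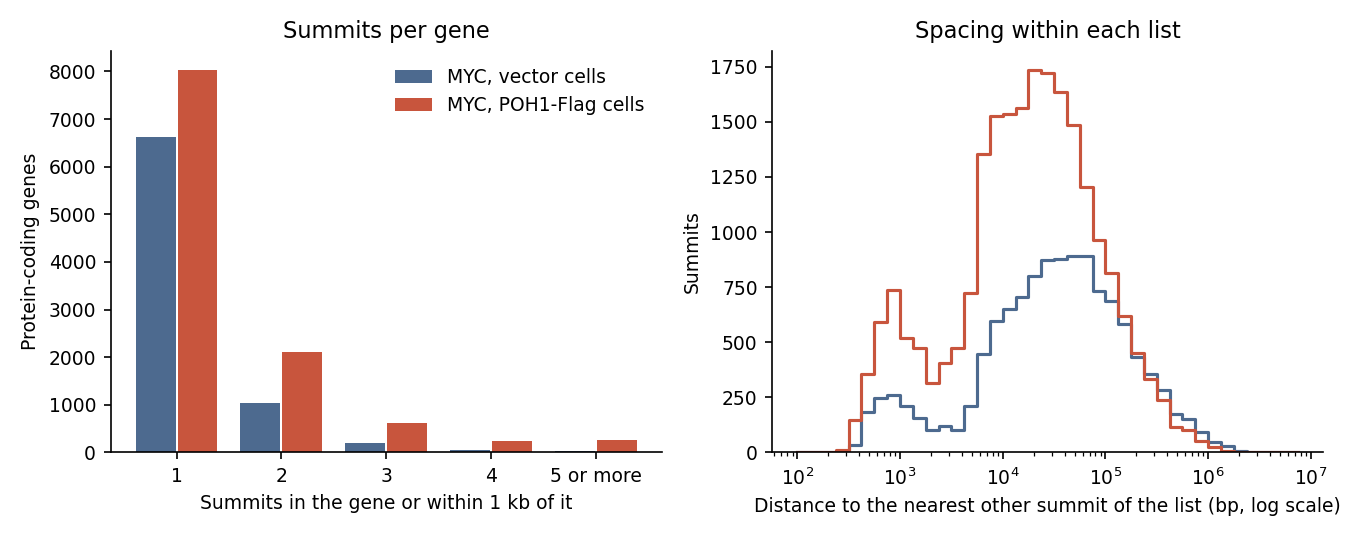
Left, number of protein-coding genes by the number of MYC summits in the gene or within 1 kb of it, genes with none not drawn; right, number of summits by distance to the nearest other summit of the same list, in bp on a log scale. Genes with 5 or more summits number 35 in vector cells (blue) and 256 in POH1-Flag cells (red), and the POH1-Flag distances lie further left, with a median of 19044 bp against 34690 bp.

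Runs of neighbouring summits at most 10 kb apart were longer and more frequent in POH1-Flag cells. Runs of 3 or more numbered 206 in vector and 714 in POH1-Flag cells, and runs of 5 or more 33 and 80. The densest ones were present in both lists. The longest POH1-Flag run held 19 summits at chr9:3000477-3037977, where vector cells had 13, no protein-coding gene lay, and 15 of the POH1-Flag peaks met a Flag peak. Another at chr17:3007417-3038102 held 11 and 10 summits, also without a protein-coding gene, and 8 of its POH1-Flag peaks met a Flag peak. How well reads map in such stretches was not examined. A run at chr6:47738005-47778089 held 17 and 15 summits. The histone gene cluster at chr13:23531272-23585898, with 15 histone genes, held 13 summits in each list, and none of its POH1-Flag peaks met a Flag peak. An interferon gene cluster at chr4:88773862-88806055 held 12 and 9 summits. The longest stretches without a summit were 7.97 Mb on chromosome 15 in vector cells and 8.25 Mb on X in POH1-Flag cells.

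Lists of related genes were read against the shares of all genes given above, 27.8% marked in vector and 39.6% in POH1-Flag cells. The 3 strongest members of each list were chosen by −log10 q in POH1-Flag cells, which favours high read ratios. Over all shared sites that marked a gene the median log2 read ratio was 0.72 (0.71 to 0.73). The 23 genes of the MYC network included 13 marked in both lists and 10 marked in neither, so no member differed in marking. In these genes or within 1 kb of them lay 22 summits in vector and 28 in POH1-Flag cells. Some of the 10 unmarked genes held summits farther than 1 kb from the start. Their 13 shared sites had a median log2 width ratio of 0.37, against 0.46 over all shared sites that marked a gene, and 10 of the 13 were wider. Myc had 13 and 20 reads, a peak of 316 bp that became 702 bp in POH1-Flag cells (chr15:61984812-61985513), and summits 75 and 46 bp from the nearer end of the gene. The read ratio of 1.57 (0.745 to 3.44) showed no difference detectable at this depth. Max had peaks of 671 and 869 bp with 28 and 39 reads, and its summit moved by 143 bp away from the E-box at base 248. Mxd4 had almost equal widths, 581 and 580 bp, with 26 and 59 reads (ratio 2.32, 1.44 to 3.84), and its summit moved by 177 bp to a place beside the E-box at base 32. Wdr5, of histone methyltransferase complexes and a partner of MYC, had 468 and 1156 bp. Trrap, the scaffold of acetyltransferase complexes that MYC recruits, had 459 and 1048 bp.

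Of 50 core MYC targets 43 were marked in both lists, 4 in POH1-Flag cells only, 1 in vector cells only and 2 in neither. Shared sites at 40 of them had a median log2 width ratio of 0.33, and 37 were wider. The nucleolin gene Ncl had widths of 1026 and 1203 bp with 47 and 80 reads, and the chaperonin gene Cct2 had 1077 and 1057 bp with 47 and 79 reads. Mcm4, of the replicative helicase, had 516 and 1008 bp. Marked in POH1-Flag cells only were Phb (21 reads), the telomerase gene Tert (10 reads), the glutamine transporter gene Slc1a5 (31 reads) and Mcm5 (19 reads). E2f2, a driver of S phase, was marked in vector cells only, by a peak of the shortest width, 219 bp, with 13 reads at 350 bp. It had 2 summits in each list, and those of POH1-Flag cells lay more than 1 kb from the start.

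Of 20 genes that MYC is known to repress, 8 were marked in both lists and 3 in POH1-Flag cells only. Cdkn1b, which encodes the cell cycle inhibitor p27, had a vector peak of 219 bp with 16 reads at −205 bp and a POH1-Flag peak of 776 bp with 33 reads at 127 bp (read ratio 2.11, 1.13 to 4.11). Ndrg1 and Gadd45a had 36 and 40 and 25 and 26 reads. The 3 were the growth arrest gene Gadd45g and the receptor genes Pdgfrb and Tgfbr2.

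The proteasome lid, to which POH1 itself belongs, went from 2 to 8 marked genes of 9. Psmd3 and Psmd12 were marked in both lists, with widths of 734 and 683 bp and of 412 and 599 bp. Psmd14 was marked in POH1-Flag cells only, by a peak 771 bp wide with 24 reads at 177 bp (chr2:61711287-61712057). Psmd7, Psmd8, Psmd11, Psmd13 and Sem1 were the others, with 12 to 22 reads and widths of 497 to 765 bp, and Psmd6 was marked in neither. The list is 1 of 11 and holds 9 genes, and nothing particular to it was tested.

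Of 20 ubiquitin ligase and deubiquitinase genes that act on MYC, 12 were marked in both lists and 2, Fbxo32 and Trim32, in POH1-Flag cells only. Their 12 shared sites had a median log2 width ratio of 0.44, and 11 were wider. Fbxw7 had 776 and 789 bp with 13 and 26 reads. Usp36 had 541 and 787 bp, and Usp28 had 894 and 932 bp with 22 and 45 reads (ratio 2.09, 1.23 to 3.66). Skp2 had no marking in either list and 1 summit of 10 reads in the gene in POH1-Flag cells.

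Of 15 genes of epithelial state, which a ductal line could express, 1 was marked in vector and 5 in POH1-Flag cells, among them the claudin gene Cldn3 in both (17 and 38 reads). Ocln, Krt7, Ovol1 and Esrp2 were marked in POH1-Flag cells only, with 9 to 16 reads, while Cdh1, Epcam, Krt8, Krt18 and Krt19 were marked in neither list. Krt8 still had 1 summit of 34 reads in the gene or within 1 kb of it in POH1-Flag cells, and none in vector cells. Counted in this way, the 15 genes held 4 summits in vector and 17 in POH1-Flag cells. A higher number was not particular to this list. Neuron markers held 1 and 7 summits, fibroblast markers 1 and 5, macrophage markers 2 and 3, and acinar and T cell markers none. Markers of other cell types were marked rarely. No gene was marked in either list among 14 acinar, 15 T cell and 15 neuron markers. Fibroblast markers had 0 and 1 marked genes of 15, the 1 being Pdgfrb, and macrophage markers 1 and 2 of 15, Cd14 in both and Cd68 in POH1-Flag cells. A MYC peak is no measure of expression, so the cell type named in the labels could not be checked further.

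**Figure D5:**
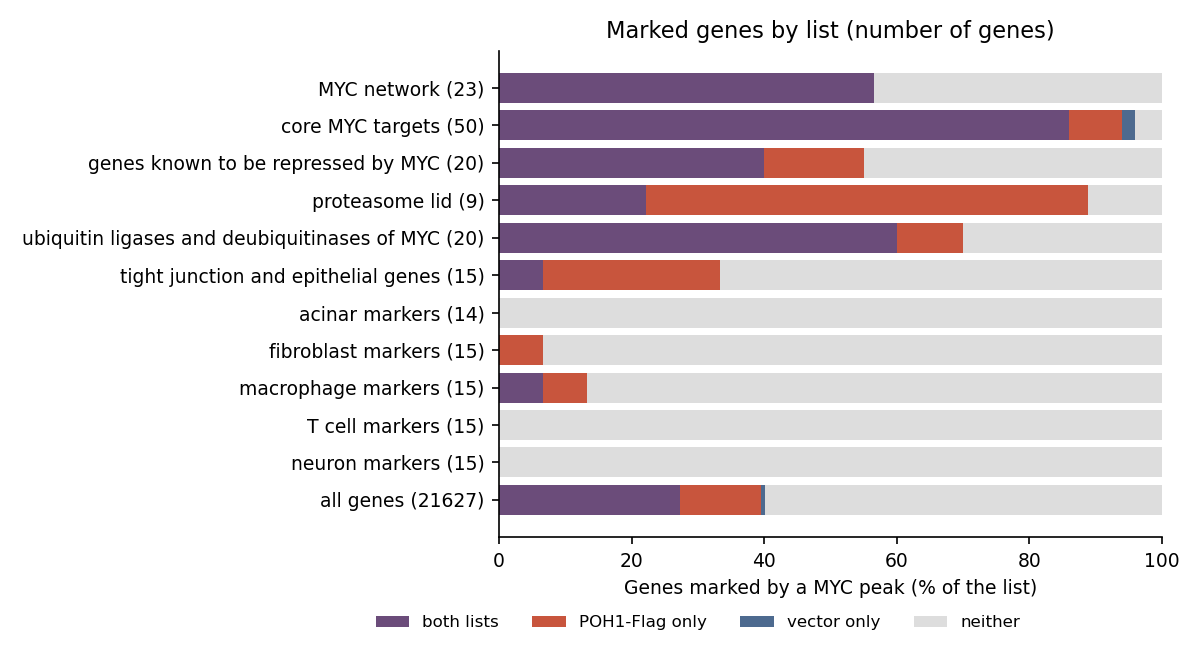
Share of each gene list (%) marked by a MYC peak in both lists (purple), in POH1-Flag cells only (red), in vector cells only (blue) or in neither (grey), with all 21627 genes at the bottom. The MYC network has 13 genes in both and none in a single list, the proteasome lid has 6 of 9 in POH1-Flag cells only, and acinar, T cell and neuron markers have none.

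Promoters of the marked genes differed in sequence from the rest. The window was that of RefSeq, from 250 bases before to 50 after the start, for the 17273 genes that have one, and the E-box CACGTG was present in 8.01% of all of them (7.61 to 8.42%). It was present in 12.6% (11.7 to 13.5%) of the 4846 promoters of genes marked in both lists, in 8.54% (7.43 to 9.81%) of the 2119 marked in POH1-Flag cells only, and in 5.73% (5.29 to 6.19%) of the 10218 marked in neither. Genes marked in vector cells only had 8 of 90 (8.89%, 4.57 to 16.6%). The median GC content was 63% for both, 60% for POH1-Flag only and 51.3% for neither, and the median number of CpG dinucleotides 24, 20 and 5.

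E-boxes were more frequent in GC-rich promoters, so the shares were also taken within 4 classes of near-equal size by GC content. In the second class, from 48.3 to 56.3% GC, the E-box was in 11.9% (9.85 to 14.4%) of promoters marked in both, 8.27% (6.24 to 10.9%) of those marked in POH1-Flag cells only and 5.66% (4.86 to 6.58%) of those marked in neither. In the highest class the shares were 13.3% (11.9 to 14.8%), 8.88% (6.93 to 11.3%) and 10.3% (8.92 to 11.9%), and promoters marked in POH1-Flag cells only had no higher share than unmarked ones. In the lowest class the shares were 6.87%, 3.97% (1.83 to 8.40%) and 2.63% (2.17 to 3.18%). In the third they were 12.8%, 9.34% (7.48 to 11.6%) and 8.29% (7.13 to 9.62%). The intervals for POH1-Flag cells only and for neither overlapped in every class. Read the other way, promoters with an E-box were marked at 44.6% in vector and 57.1% in POH1-Flag cells, and promoters without one at 27.2% and 38.9%.

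Distances from summit to E-box had overlapping intervals in the 2 lists. At 518 shared sites with a single E-box in the promoter the median distance was 128.5 bp (119.5 to 143.5) in vector and 121.5 bp (110.5 to 129.5) in POH1-Flag cells. Of the summits, 19.9% and 21.0% lay within 50 bp of it. The median distance to the start at these sites was 133 bp (120 to 143) and 124 bp (111 to 135). In each list the intervals for E-box and start overlapped, so summits were not detectably nearer to the E-box than to the start. A match of these 6 letters is a description of the promoter and not a binding site.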

How the data were processed

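CUT&Tag peak lists of 3 Pan02 libraries were used, 1 per group by sample title: MYC in vector cells, MYC in POH1-Flag cells, and Flag in POH1-Flag cells to mark sites. Tools in the submitters' processing notes are MACS2 2.2.7.1, BWA 0.7.17-r1188, FastQC 0.11.9 and Trim Galore 0.6.6, with GRCm38/mm10 as the build. What each did, with which parameters, control or blacklist and how duplicates were treated, is not given in the sources used here. Peaks were called per library, since each has its own deposited list. The deposited files have the narrowPeak layout without a header. They hold peak start, end and summit offset in bp, the authors' fold enrichment (a linear ratio), the authors' −log10 p and −log10 q, and a deposited score that is 10 times the −log10 q in nearly all peaks. The −log10 q served only to rank or filter within a list, and fold was used with −log10 p as described next.

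Whole reads at each summit and the background were solved from fold and −log10 p, and matched within 0.01 in 100% of peaks. Ratios of reads were divided by the ratio of background under a summit, 0.977. Total depth is not given, and background reads per kb put the POH1-Flag library at 1.06 times the vector library. Widths are end minus start. Overlap meant at least 1 bp. Genes and promoters came from RefSeq tables of GRCm38.p6. Gene starts were the outer bounds of genes, on the strand of the promoter table, and for 60.0% of the 17273 genes the promoter's start is the same base, while for 10.1% it lies more than 1 kb away. Exons and introns were not used. Shares have Wilson, medians order-statistic and ratios exact conditional Poisson intervals at 95%. No test between the lines was possible with 1 library a group. Python 3.11.15, numpy 2.4.6, pandas 2.3.3 and SciPy 1.17.1 were used, and the steps were tested on simulated data.

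Named genes were Myc, Max and Psmd14, the 6 most extreme genes by number of summits in each list, by gain and by loss, by −log10 q in each class of marking, and by widening, narrowing and shift, the 3 strongest members of each of 11 gene lists, and members marked in vector cells only. Predicted genes were passed over. Mcm4, Wdr5, Trrap, Fbxw7, Skp2 and the remaining proteasome lid and epithelial genes were named after their values were seen. Of 212 list entries 211 matched a gene, all but Ctrc. The members and lists were chosen with earlier results of these data known.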

Additional observations from a re-analysis of the deposited data

How the results depend on the processing

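Of 72 recomputed values 26 moved by no more than counting error (counts of genes: 1.5 times) and 46 moved by more. At a −log10 q of at least 5 and of at least 10, the number ratio was 2.04 and 2.95, the width difference 71 and 77.5 bp (36 bp as reported), the log2 width ratio 0.35 and 0.26, the log2 read ratio 0.60 and 0.53, the shift 55 and 41 bp, genes with 2 or more summits 9.46% and 1.92% in vector and 17.7% and 6.95% in POH1-Flag cells, the nearest summit 52146.5 and 142164 bp and 27244 and 52559 bp, and genes marked in vector cells only 75 and 30. Genes marked in both were 1438 at 10. With the POH1-Flag list cut to its 11925 strongest peaks by q, the width difference was 201 bp, POH1-Flag genes with 2 or more summits 15.4%, against 16.8% in vector cells, its nearest summit 30507 bp, and genes marked in POH1-Flag only and vector only 1343 and 606. The order of the 2 lists in genes with several summits thus turned at equal list length. With at least 15 reads, scaled to the vector background (an alternative chosen after seeing the data), the number ratio was 2.21, the width difference 70 bp, genes with 2 or more summits 10.8% and 19.5%, the nearest summit 44493 and 19709.5 bp, genes marked in both 3190 and in vector only 49. Leaving out MYC peaks at Flag peaks, the number ratio was 1.95, the log2 width ratio 0.44, the shift 71 bp and the log2 read ratio 0.67. With 50% of each peak shared, the log2 width ratio was 0.30 and the shift 61 bp. With widths taken above the shortest of each list, the width difference was 53 bp and the log2 width ratio 0.73. Genes without flanks had 2 or more summits at 15.8% and 27.6%. Within 500 bp of a start, 215 genes were marked in vector only. Scaling by background reads per kb gave a log2 read ratio of 0.52. Where not fixed by the construction of an alternative, the cause of a move was not tested. No paired analysis was possible because each group has 1 library, and no replicate could be left out. Summits of about 15 reads give single sites wide intervals.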

Other observations

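MYC peaks outside chromosomes 1 to 19 and X were not part of the comparison. Unplaced contigs held 224 peaks in vector and 369 in POH1-Flag cells (ratio 1.65, 95% counting interval 1.39 to 1.95), with median widths of 406 and 390 bp and medians of 21 and 18 reads. Chromosome Y held 22 and 33 peaks (1.5, 0.849 to 2.70), and the mitochondrial genome held 4 in each list, with medians of 222.5 and 237 reads.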
